A study of Mus musculus with 8 samples.

Results

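The genes described here are 35 mouse genes of the Fanconi anaemia pathway and of homologous recombination repair, chosen by symbol. Of these, 32 had a row in the table of 21950 genes, and Brca1, Palb2 and Brip1 were not analysed here. RNA of d6PGCLCs (4 pools) was compared with that of PGCs at E12.5 (4 pools). The d6PGCLCs, which are primordial germ cell-like cells made in culture, came from BVSC-iPSC, a female mouse iPSC line whose reporters are Stella-ECFP and Blimp1-Venus. They were sorted as positive for both reporters at day 8 of the culture, which is 6 days after the EpiLC stage. The PGCs, the embryonic precursors of oocytes and sperm, were sorted from C57BL/6J female gonads at E12.5 as cells positive for SSEA1 and integrin β3. All d6PGCLC pools derive from a single iPSC line and the groups were sorted by different markers, so that the cell line, the strain and the sort cannot be told apart from the step of development. The pools came from independent experiments.

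The Fanconi pathway repairs DNA interstrand crosslinks. A core complex of FANC proteins meets the lesion at a stalled replication fork and, through its ubiquitin ligase FANCL, attaches ubiquitin to FANCD2 and FANCI, after which nucleases held by SLX4 cut the crosslink out. The break that results is mended by homologous recombination, in which the MRE11-RAD50-NBN complex and CtIP resect the ends, BRCA2 promotes strand exchange on the resected single-stranded DNA, and a family of paralogs (Rad51b, Rad51c, Rad51d, Xrcc2 and Xrcc3) and the RAD54 proteins help the broken strand to find and invade an intact copy. Germ cells depend on this machinery: loss of Fanconi genes in mice reduces the number of PGCs, and meiotic recombination, which female germ cells enter soon after the stage sampled here, uses many of the same proteins.

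The libraries held 7991437 to 12024841 counted reads. Every gene of the set was well above the limit of detection, with between 62 and 3016 counts in each library, while 3 counts corresponded to 0.249 to 0.383 CPM (counts scaled to the library total). The 13 germ cell markers summed to 6199 to 6858 CPM in d6PGCLCs and to 4598 to 5008 CPM in PGCs, and none of them was at the limit of detection. Of the 13, 7 were higher in d6PGCLCs and 3 were lower, with log2 fold changes of -0.59 for Dnd1, -0.72 for Itgb3 and -3.48 for Fut4. Itgb3 encodes integrin β3, and Fut4 an enzyme that makes SSEA1, the surface markers by which the PGCs were sorted. The 12 markers of gonadal somatic cells summed to 7.33 to 8.73 CPM and to 9.39 to 15.8 CPM, with 9 of the 12 at no more than 3 counts in every d6PGCLC library and 2 of the 12 in every PGC library. Star alone was at 6.01 to 7.66 CPM and at 5.15 to 6.63 CPM, and the other 11 markers summed to 0.664 to 2.06 CPM in d6PGCLCs and to 4.24 to 9.48 CPM in PGCs. Of the 12, 6 were lower in d6PGCLCs and none was higher. The 8 markers of embryoid body differentiation summed to 15.2 to 34.2 CPM in d6PGCLCs and to 52.3 to 63.8 CPM in PGCs, with 6 lower and none higher. The 6 endothelial and blood markers summed to 608 to 723 CPM and to 366 to 451 CPM. Most of it was Pecam1, at 601 to 706 CPM and at 359 to 447 CPM. Pecam1 encodes CD31, an antigen by which the study also removed PGCs from gonadal cells. The sum is therefore not particular to endothelial or blood cells. Cdh5 was at 6.64 to 16.5 CPM and at 3.37 to 5.89 CPM, and both Pecam1 and Cdh5 were higher in d6PGCLCs. Kdr, Tie1, Ptprc and Adgre1 were each at no more than 0.631 CPM in every library. The part of RNA from other cells in the results was not tested. The 9 late germ cell markers were at 167 to 250 CPM against 1900 to 2800 CPM, with 8 lower in d6PGCLCs and Rec8 higher (log2 fold change 0.75). In bulk samples, fewer cells of a type and less RNA per cell cannot be told apart.

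Some libraries stood apart. In pairwise comparisons of counts, chi-square per degree of freedom was 17.3 to 22.1 for the pairs with d6PGCLC replicate 1 and 4.79 to 13.2 for the other d6PGCLC pairs, and this library was the highest of its group for 15 of the 32 genes. For the pairs with E12.5 PGC replicate 1, which was also the highest of its group for 15 genes, the value was 5.04 to 15.3, against 3.35 to 8.48 for the other PGC pairs. The heat shock gene Hspa1a was at 144 CPM in E12.5 PGC replicate 2, against 4.42 to 20.3 CPM in the other PGC libraries. E12.5 PGC replicate 2 was the lowest of its group for 17 of the 32 genes. E12.5 PGC replicate 4 held 53 counts on 4 Y-linked genes although its label is female, and the other 7 libraries held 0. Results are therefore also given without each library.

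Of the 32 genes, 7 were higher in d6PGCLCs, 11 were lower and 14 did not pass an adjusted p of 0.05 (edgeR quasi-likelihood test, Benjamini-Hochberg over 21950 genes). Over all genes, 16.1% were higher and 15.4% were lower. Among the 8038 genes with at least the mean count of the lowest of the 32, which was 106 counts, 28.4% were higher and 25.8% were lower. The shares of the 32 were 21.9% and 34.4%, and 56.2% changed in either direction against 54.2% of those similarly counted genes. The set therefore changed about as often as other genes of its level, and in both directions. Its median log2 fold change was -0.06, beside 0.00 for all genes tested, and its fold changes ran from -1.07 for Brca2 to 1.01 for Mad2l2. These were the only members past both the adjusted p and an absolute log2 fold change of 1, which 8.00% of all genes passed upwards and 6.75% downwards, and 12.9% of the similarly counted genes in either direction. No member passed both the adjusted p and an absolute log2 fold change of 2, as 6.62% of all genes did. The groups did not overlap for 17 of the 32 genes (53.1%), 7 higher and 10 lower, where the share was 30.2% of all genes and 51.8% of the similarly counted ones. Summed over the 32 genes, the libraries held 2430 ± 83.0 CPM in d6PGCLCs and 2506 ± 163 CPM in PGCs (mean ± SD, n = 4), with overlapping groups.

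**Figure D1:**
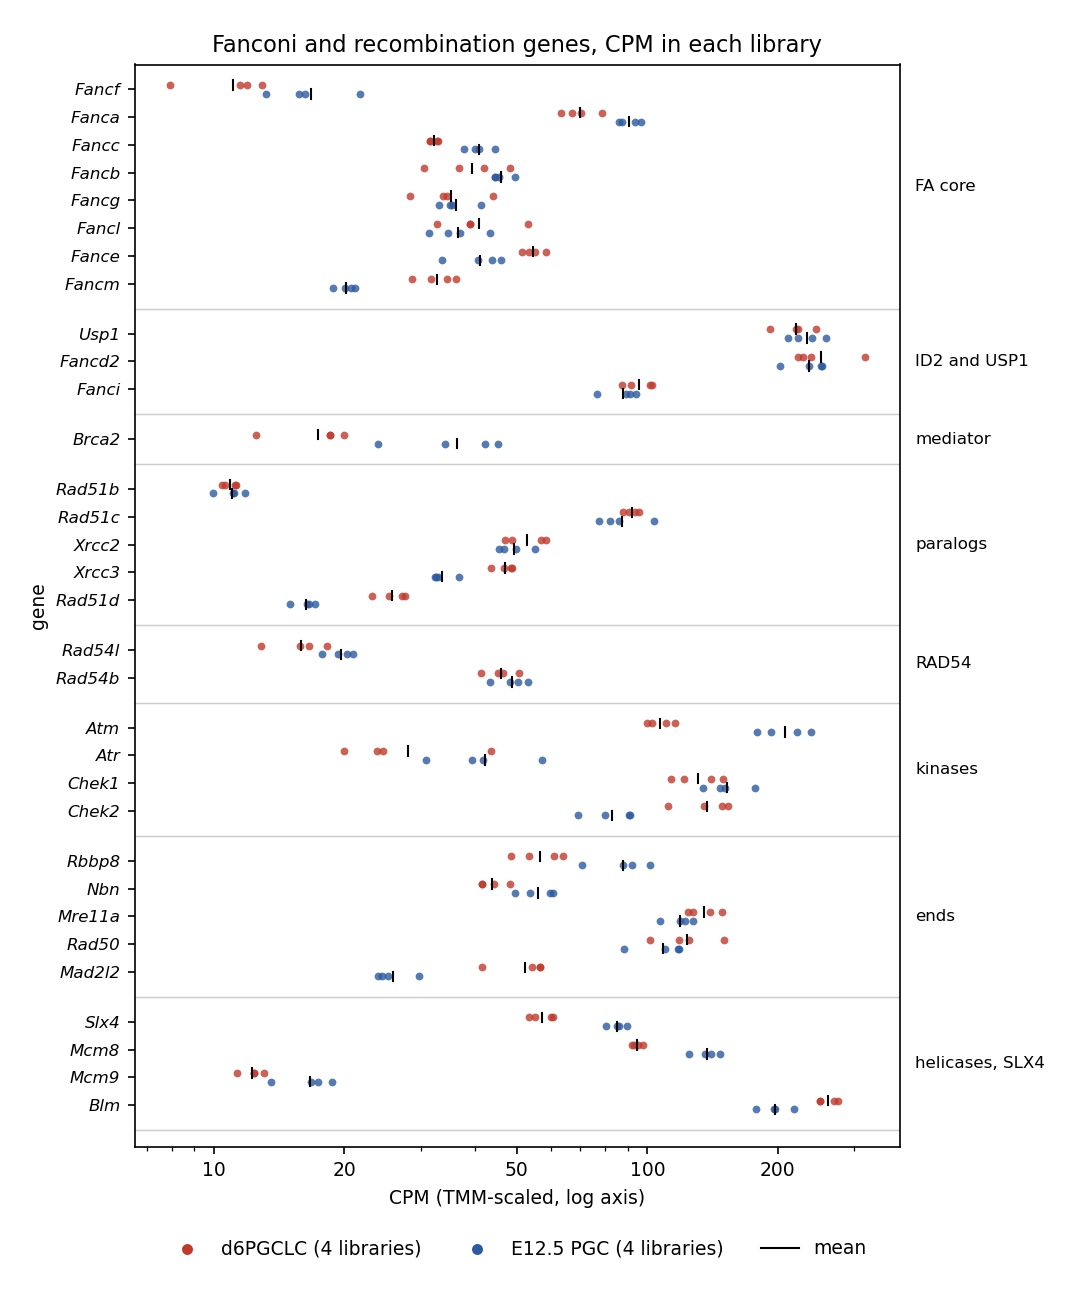
CPM of the 32 genes in each library on a log axis, grouped by role. Points are libraries (4 d6PGCLC in red, 4 E12.5 PGC in blue) and black ticks are group means. The groups lie apart for 17 genes, among them Brca2, Atm and Mad2l2.

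The promoters of the genes with the largest changes are shown so that genes which moved in opposite directions can be set side by side. They were read from RefSeq (GRCm38.p6) as the 250 bases before an annotated start, and 24 of the 32 genes had such a window. Rbbp8, whose decrease was the largest after those of Brca2 and Atm, had no such window and is not shown. Searched on both strands were the E2F letters TTTCCCGC, TTTGGCGC, TTTCGCGC and TTTGCCGC, and the CCAAT letters of NF-Y, with matches in capitals. Mad2l2 has a pair of starts, at chr4:148130670-148130919 and chr4:148140240-148140489 on the plus strand, and the windows of Chek2 (chr5:110839733-110839982, plus), Fancm (chr12:65075353-65075602, plus), Brca2 (chr5:150522371-150522620, plus) and Atm (chr9:53536672-53536921, minus) follow.
Mad2l2 first start: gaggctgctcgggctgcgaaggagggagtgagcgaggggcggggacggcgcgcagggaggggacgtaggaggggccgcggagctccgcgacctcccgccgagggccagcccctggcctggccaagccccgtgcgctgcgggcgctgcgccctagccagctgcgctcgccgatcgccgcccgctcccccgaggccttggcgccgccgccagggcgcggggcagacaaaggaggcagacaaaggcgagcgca
Mad2l2 second start: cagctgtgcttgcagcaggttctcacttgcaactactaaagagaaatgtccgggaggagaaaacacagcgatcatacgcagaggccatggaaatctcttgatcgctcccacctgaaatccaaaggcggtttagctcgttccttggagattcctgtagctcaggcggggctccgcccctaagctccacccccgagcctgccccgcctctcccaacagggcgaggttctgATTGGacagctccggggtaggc
Chek2: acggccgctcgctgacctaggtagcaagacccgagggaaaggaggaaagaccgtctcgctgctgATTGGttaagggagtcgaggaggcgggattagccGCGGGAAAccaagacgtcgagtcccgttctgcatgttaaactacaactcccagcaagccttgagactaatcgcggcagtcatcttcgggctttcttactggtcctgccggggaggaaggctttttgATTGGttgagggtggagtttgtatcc
Fancm: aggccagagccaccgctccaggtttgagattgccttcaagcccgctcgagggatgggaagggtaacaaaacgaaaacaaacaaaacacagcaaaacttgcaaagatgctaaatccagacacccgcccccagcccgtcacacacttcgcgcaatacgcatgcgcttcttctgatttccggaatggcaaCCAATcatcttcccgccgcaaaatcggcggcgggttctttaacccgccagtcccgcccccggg
Brca2: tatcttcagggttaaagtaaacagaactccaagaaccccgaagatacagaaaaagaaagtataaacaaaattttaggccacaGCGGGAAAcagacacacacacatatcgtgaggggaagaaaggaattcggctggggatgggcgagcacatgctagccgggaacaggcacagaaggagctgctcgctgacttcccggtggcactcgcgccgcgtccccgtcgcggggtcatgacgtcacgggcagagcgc
Atm: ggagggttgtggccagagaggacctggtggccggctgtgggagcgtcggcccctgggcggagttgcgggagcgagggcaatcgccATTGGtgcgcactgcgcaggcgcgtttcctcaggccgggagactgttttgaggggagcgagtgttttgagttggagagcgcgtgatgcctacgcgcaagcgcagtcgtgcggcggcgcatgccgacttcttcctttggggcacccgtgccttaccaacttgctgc

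The same 8 E2F letters stand in the promoter of Chek2, which was higher in d6PGCLCs, 152 to 145 bases before its start, and in that of Brca2, which was lower, 168 to 161 bases before its start. In the window from 250 bases before to 50 bases after the start, E2F letters were found for 5 of the 24 genes (20.8%), namely Brca2, Chek2, Fancg, Mcm8 and Rad51c, against 2.60% of all genes with a window and 5.38% of similarly counted genes with a window. Of these 5 genes, 1 was higher, 2 were lower and 2 did not pass the test. CCAAT was found for 17 of the 24 genes (70.8%), against 41.1% and 44.4%. Within 150 bases before the start alone, the shares were 4.17% for E2F, against 1.44% and 3.03%, and 41.7% for CCAAT, against 27.7% and 33.4%. In the whole window, CCAAT was found for 6 of 6 higher genes, 7 of 9 lower genes and 4 of 9 genes that did not pass the test. Within 150 bases before the start, these were 4 of 6, 3 of 9 and 3 of 9. The letters TTTGAA or TTCGAA of the cell cycle element CHR were found for 2 genes (8.33%), Atr and Rad51b, against 21.7% and 16.2%, and the E-box CACGTG for 2 (8.33%), Mcm8 and Slx4, against 8.09% and 13.3%. The palindromic motif of NRF1 was found for none of the 24, against 1.07% and 2.77%. These matches are a description of the letters and not of binding.

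In the Fanconi core complex, 2 of 8 genes were higher, 3 were lower and 3 did not pass the test. Fancm, whose product is a DNA translocase that recognises the blocked fork and anchors the complex, was at 34.5, 28.7, 36.1 and 31.6 CPM in the d6PGCLC libraries and at 18.8, 20.1, 20.7 and 21.2 CPM in the PGC libraries. Every d6PGCLC library was above every PGC library, and the log2 fold change was 0.69 ± 0.13 (SE, adjusted p = 2.56e-04). The counts of Fancm fall on a model of 2241 bases, 28.8% of its longest annotated coding transcript. Fance, the bridge from the core to FANCD2, was at 58.5, 53.4, 55.2 and 51.3 CPM against 33.7, 46.0, 43.7 and 40.7 CPM. The groups did not overlap, and the log2 fold change was 0.41 ± 0.12 (adjusted p = 0.00931).

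Fanca, a scaffold of the core, was the most highly counted of its genes and moved the other way. It was at 70.5, 63.1, 78.7 and 66.9 CPM in d6PGCLCs and at 96.8, 87.4, 85.9 and 93.5 CPM in PGCs, a log2 fold change of -0.38 ± 0.10 (adjusted p = 0.00536) with no overlap. Fancc and Fancf, both small adaptors of the complex, were also lower. Fancc was at 31.4 to 32.9 CPM against 37.7 to 44.6 CPM, a log2 fold change of -0.35 ± 0.12 (adjusted p = 0.0259). Without E12.5 PGC replicate 4 it was -0.30 and the adjusted p was 0.116. Fancf, a gene with a single exon, was at 7.91 to 12.9 CPM against 13.2 to 21.8 CPM, a log2 fold change of -0.59 ± 0.19 (adjusted p = 0.0195). It rested on E12.5 PGC replicate 2, its highest library, without which the log2 fold change was -0.43 and the adjusted p 0.108. For Fancb, which is X-linked, Fancg, and Fancl, the ubiquitin ligase, the groups overlapped and the log2 fold changes were -0.22, -0.04 and 0.16, with 95% intervals from -0.50 to 0.05, from -0.33 to 0.25 and from -0.14 to 0.46.

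The target of the core and its deubiquitinase showed no call among 3 genes. Fancd2 was at 318, 229, 222 and 238 CPM in d6PGCLCs and at 251, 203, 253 and 236 CPM in PGCs. Its highest library was d6PGCLC replicate 1, the log2 fold change was 0.09 with a 95% interval from -0.14 to 0.32, and without that library it was -0.04. Fanci, its partner, was at 87.4 to 102 CPM against 76.7 to 94.0 CPM, a log2 fold change of 0.12 with an interval from -0.09 to 0.33. Usp1, which removes the ubiquitin again, was at 192 to 245 CPM against 211 to 258 CPM, a log2 fold change of -0.08 with an interval from -0.28 to 0.11. Per kilobase of exon Usp1 was the highest of the 32 genes in both groups, at 55.9 ± 5.51 and 59.2 ± 5.16 RPKM (CPM divided by the exonic length in kilobases).

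Brca2, a mediator of strand exchange, had the largest decrease. It was at 18.5, 12.52, 18.5 and 20.0 CPM in d6PGCLCs and at 45.3, 23.9, 42.2 and 34.2 CPM in PGCs. The lowest PGC library, replicate 2, was still above the highest d6PGCLC library. The log2 fold change was -1.07 ± 0.18 (adjusted p = 8.30e-05), a level 2.09-fold lower, and leaving out any 1 library gave values from -1.22 to -0.94. The gene lies on chromosome 5 (150522297 to 150570147, GRCm38), but its counts fall on a model of 3026 bases, 28.2% of its longest coding transcript, so that most of that transcript was not counted.

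Of the 5 paralogs Rad51b, Rad51c, Rad51d, Xrcc2 and Xrcc3, which assist strand exchange, 2 were higher and none was lower. Rad51d was at 27.2, 25.3, 27.5 and 23.2 CPM in d6PGCLCs and at 15.0, 16.4, 16.6 and 17.2 CPM in PGCs, a log2 fold change of 0.66 ± 0.14 (adjusted p = 6.22e-04). Xrcc3 was at 48.4, 46.7, 48.7 and 43.6 CPM against 32.6, 36.8, 32.9 and 32.4 CPM, a log2 fold change of 0.48 ± 0.11 (adjusted p = 0.00213). In both genes every d6PGCLC library was above every PGC library. The partners with which these proteins form complexes did not pass the test. Rad51b, Rad51c and Xrcc2 had overlapping groups, and their log2 fold changes were -0.02 (95% interval from -0.36 to 0.32), 0.08 (from -0.14 to 0.29) and 0.10 (from -0.14 to 0.34). The model counted for Rad51d, of 7230 bases, is 211% of its longest coding transcript, and Rad51d had the lowest level of the 32 genes per kilobase, at 3.57 ± 0.28 RPKM in d6PGCLCs and 2.25 ± 0.13 RPKM in PGCs.

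The RAD54 proteins, which drive strand exchange along DNA, showed no call. Rad54l was at 12.8 to 18.3 CPM against 17.8 to 20.9 CPM and Rad54b at 41.4 to 50.7 CPM against 43.3 to 53.1 CPM. Their log2 fold changes were -0.30 (95% interval from -0.62 to 0.02) and -0.09 (from -0.33 to 0.15). The interval of Rad54l was the only 1 of the 14 genes without a call to reach past 0.5 in size, and with a correction for transcript length Rad54l passed the threshold, at -0.40 and an adjusted p of 0.04999.

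**Figure D2:**
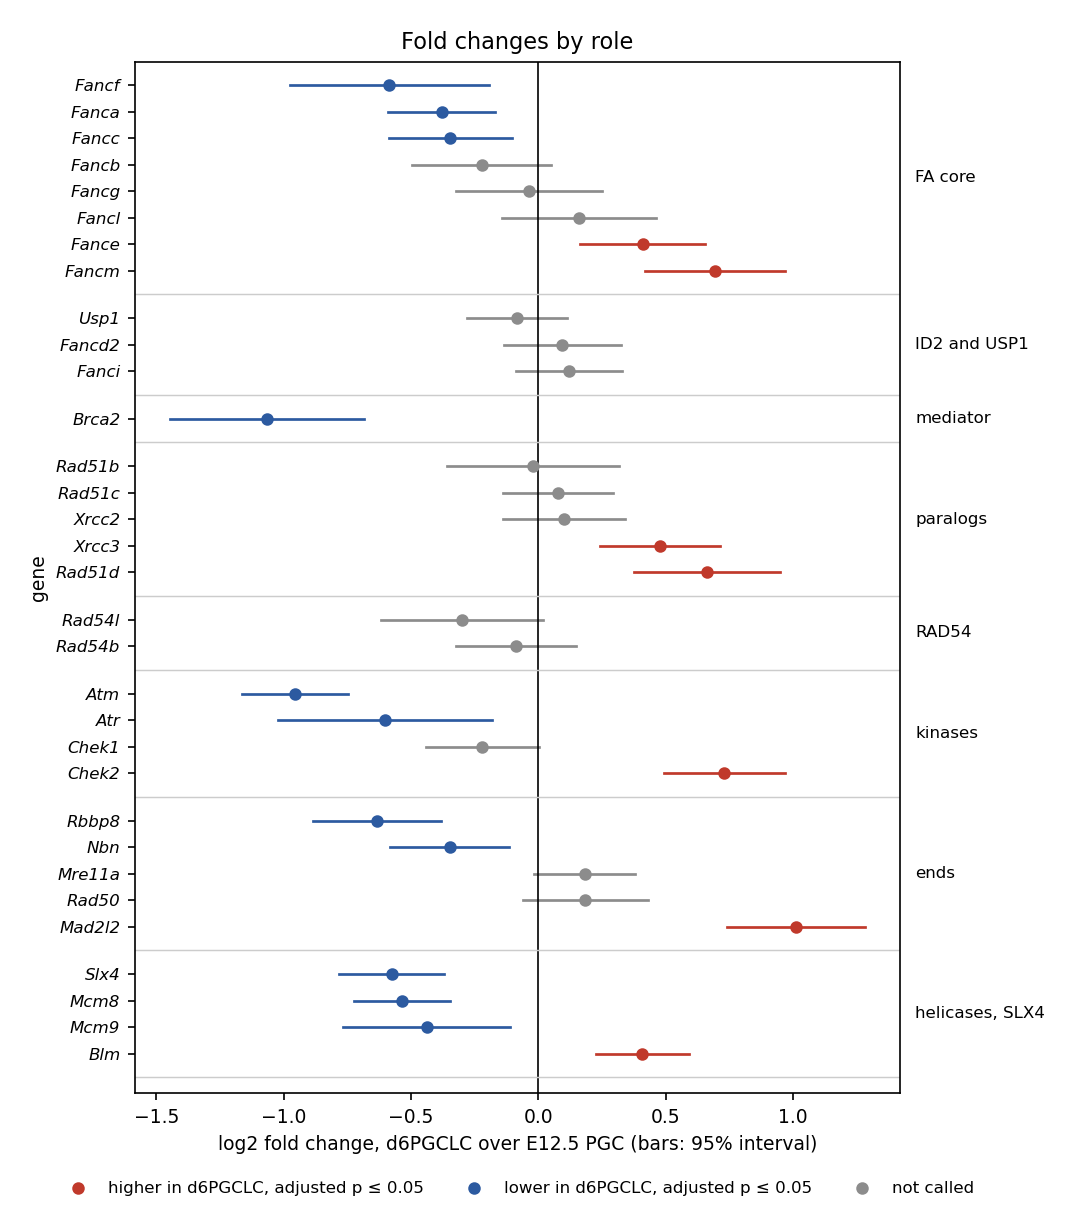
Log2 fold change of the 32 genes, d6PGCLC over E12.5 PGC, grouped by role as points with bars for the 95% interval. Red genes were higher and blue genes lower at an adjusted p of at most 0.05, and grey genes did not pass it. Every role with 4 or more genes, apart from the paralogs, holds both red and blue genes.

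Among the 4 checkpoint kinases the direction differed. Atm, the kinase that double-strand breaks activate, was at 116, 100.0, 110 and 102 CPM in d6PGCLCs and at 238, 179, 222 and 193 CPM in PGCs. The groups lay far apart, and the log2 fold change was -0.96 ± 0.10 (adjusted p = 1.44e-07), the lowest adjusted p of the set. Leaving out any library gave -1.02 to -0.89, and a correction for transcript length, of which Atm has the longest model with 14326 bases, gave -0.65. Atr, the kinase that responds to single-stranded DNA at stalled forks, was at 43.5, 20.0, 23.8 and 24.6 CPM against 57.3, 30.8, 41.8 and 39.4 CPM. Here d6PGCLC replicate 1 overlapped with the PGC libraries, and the log2 fold change of -0.60 ± 0.20 (adjusted p = 0.0258) reached an adjusted p of 0.121 without E12.5 PGC replicate 1. The Atr counts fall on 2326 bases, 28.7% of its longest coding transcript.

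Chek2, the effector kinase downstream of ATM, rose while Atm fell. It was at 111, 135, 149 and 153 CPM in d6PGCLCs and at 69.1, 91.1, 79.9 and 90.5 CPM in PGCs, a log2 fold change of 0.73 ± 0.11 (adjusted p = 2.62e-05) with no overlap. For Chek1, the effector downstream of ATR, the libraries were at 113 to 149 CPM and 134 to 178 CPM and overlapped. Its log2 fold change was -0.22 (95% interval from -0.44 to 0.00, adjusted p = 0.138), and without d6PGCLC replicate 1 it passed the threshold, at -0.29 and an adjusted p of 0.0279.

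At the ends of a break, 1 of 5 genes was higher and 2 were lower. Mad2l2, whose product REV7 belongs to the shieldin complex that protects ends from resection and to the translesion polymerase zeta, had the largest increase of the set. It was at 56.7, 54.1, 56.4 and 41.6 CPM in d6PGCLCs and at 24.5, 25.3, 24.0 and 29.7 CPM in PGCs. The groups were far apart, with a log2 fold change of 1.01 ± 0.13 (adjusted p = 2.33e-06), a 2.02-fold higher level, and values from 0.97 to 1.11 when a library was left out. The gene lies on chromosome 4 (148130158 to 148145704, GRCm38). Rbbp8, which encodes the resection factor CtIP, was lower, at 48.4, 60.8, 53.3 and 63.8 CPM against 101, 70.5, 87.7 and 92.1 CPM. Its groups did not overlap, and the log2 fold change was -0.64 ± 0.12 (adjusted p = 2.47e-04).

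The members of the MRE11-RAD50-NBN complex, which senses breaks, did not move alike. Nbn was at 41.5 to 48.1 CPM in d6PGCLCs and 49.5 to 60.6 CPM in PGCs, a log2 fold change of -0.35 ± 0.11 (adjusted p = 0.0207). The adjusted p reached 0.0842 without E12.5 PGC replicate 4. Mre11a, the nuclease, was at 124 to 148 CPM against 107 to 128 CPM, and Rad50, which tethers the ends, at 101 to 150 CPM against 88.3 to 119 CPM. Both overlapped and had log2 fold changes of 0.18, with 95% intervals from -0.02 to 0.38 and from -0.06 to 0.43.

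Of the helicases and the nuclease scaffold, 3 of 4 genes were lower and 1 was higher. Slx4, the scaffold of the crosslink nucleases, was at 60.5, 55.1, 60.0 and 53.3 CPM in d6PGCLCs and at 86.1, 80.4, 85.0 and 89.7 CPM in PGCs, a log2 fold change of -0.58 ± 0.10 (adjusted p = 8.23e-05). Mcm8 was at 93.3, 91.9, 95.2 and 97.7 CPM against 136, 125, 140 and 147 CPM, a log2 fold change of -0.54 ± 0.09 (adjusted p = 7.08e-05). Both genes had narrow groups that lay well apart. Mcm9, whose product forms a helicase with MCM8, was at 11.3 to 13.0 CPM against 13.6 to 18.7 CPM, a log2 fold change of -0.44 ± 0.16 (adjusted p = 0.0382), and its adjusted p reached 0.115 without E12.5 PGC replicate 1. Loss of Mcm8 or Mcm9 in mice is known to impair fertility. Blm, the helicase that dissolves joint molecules, was higher, at 275, 250, 250 and 270 CPM against 218, 178, 197 and 196 CPM. Its log2 fold change was 0.41 ± 0.09 (adjusted p = 8.93e-04), again with no overlap.

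Of the 18 called genes, 13 stayed past the threshold when any 1 library was left out, which were all 7 higher genes and 6 of the 11 lower genes. The other 5 were Fancc, Fancf, Atr, Nbn and Mcm9. Without d6PGCLC replicate 1 there were 7 higher and 12 lower genes, without E12.5 PGC replicate 2 there were 7 and 10 and without E12.5 PGC replicate 4 there were 7 and 8. The levels per kilobase of exon kept much of their order, with Usp1 first and Rad51d last in both groups. Chek2 ranked 2 in d6PGCLCs and 7 in PGCs, Mad2l2 6 and 17, Fancm 17 and 29, Mcm8 12 and 5, and Brca2 29 and 23. The median level was 15.2 RPKM in d6PGCLCs and 17.2 RPKM in PGCs, against 3.37 and 3.17 RPKM for the 17010 genes with a count.

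**Figure D3:**
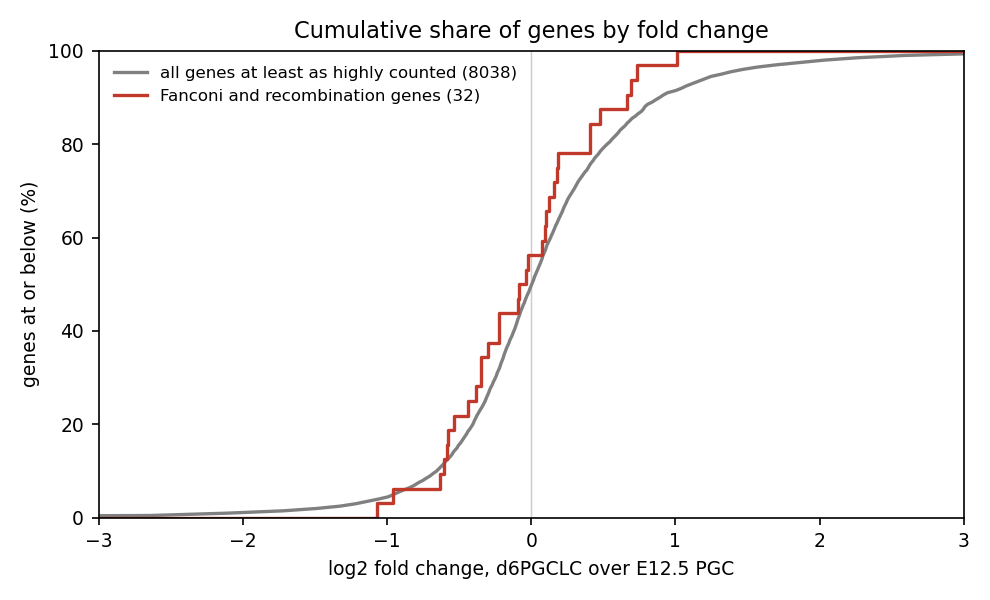
Cumulative share of genes (%) by log2 fold change, d6PGCLC over E12.5 PGC, for the 32 genes (red steps) and the 8038 genes with at least the same lowest mean count (grey line). The red steps cross 0 near the grey line and end at -1.07 and 1.01, while the grey line runs on in both directions.

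Ratios of a pair of genes within a library do not depend on scaling, and 6 pairs with related roles, picked with their values known, are given as a description without a test. The ratio of Chek2 to Chek1 was 0.747 to 1.35 in the d6PGCLC libraries and 0.389 to 0.679 in the PGC libraries. The ratio of Fancm to Fanca was 0.455 to 0.489 against 0.195 to 0.241, and that of Rad51d to Rad51b was 2.22 to 2.59 against 1.45 to 1.50. These 3 ratios were higher in every d6PGCLC library, and that of Nbn to Mre11a was lower in every d6PGCLC library, at 0.298 to 0.388 against 0.449 to 0.490. The ratios of Atm to Atr (2.67 to 5.01 against 4.15 to 5.80) and of Mcm8 to Mcm9 (7.17 to 8.14 against 7.26 to 9.18) overlapped between the groups.

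**Figure D4:**
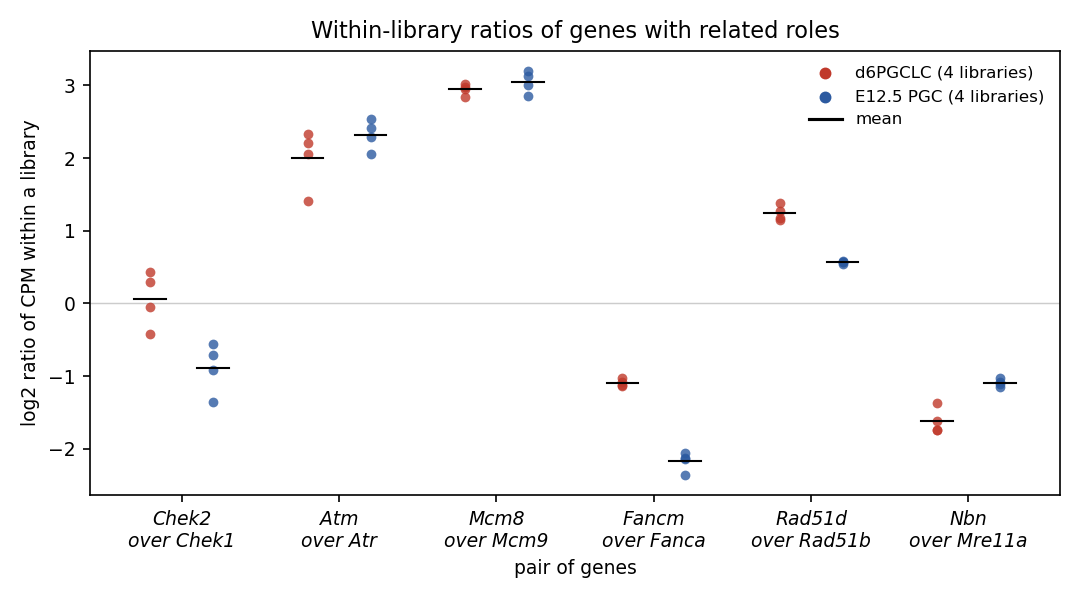
Log2 ratio of the CPM of a pair of genes within each library, for 6 pairs. Points are libraries (d6PGCLC in red, E12.5 PGC in blue) and black bars are means. The groups lie apart for 4 pairs and overlap for Atm over Atr and Mcm8 over Mcm9.

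Of 83 further genes of the same pathways listed whatever their change, 65 were in the table. In these, 6 were higher, 21 were lower and 38 did not pass the test, with a median log2 fold change of -0.16 beside 0.00 for all genes. The shares were 9.23% higher and 32.3% lower, against the 16.1% and 15.4% of all genes and the 28.4% and 25.8% of similarly counted genes given above. The 28 other recombination genes held 9 lower genes (32.1%) and no higher gene. The largest decreases were those of Hells, a chromatin remodeller of the SNF2 family (-1.24), Rpa2, a subunit of the single-strand binding protein RPA (-1.17), and Rev3l, the catalytic subunit of polymerase zeta. Rev3l was at 11.1, 8.96, 9.29 and 10.1 CPM in d6PGCLCs and at 30.3, 13.6, 18.5 and 16.6 CPM in PGCs, a decrease (adjusted p = 6.00e-04) where its partner Mad2l2 increased. The Rev3l counts fall on a model of 3745 bases, and its share of the longest transcript was not examined. Next came Rnf8, a ubiquitin ligase at breaks (-0.99), Wee1, the kinase that holds back mitosis (-0.79), and Uimc1, which encodes the ubiquitin reader RAP80 (-0.69). The largest increases were those of Faap20 of the Fanconi core (1.20), Babam2, a partner of RAP80 (0.79), the nuclease gene Mus81 (0.65), Rad9a of the checkpoint clamp (0.57), Trp53 (0.48) and the ubiquitin ligase Rnf168 (0.28). Faap20 was at 21.8, 26.8, 26.2 and 24.2 CPM against 8.73 to 12.7 CPM, with no overlap (adjusted p = 3.63e-06). The change of Rnf168 lost its call without d6PGCLC replicate 3 or 4 and without E12.5 PGC replicate 2, 3 or 4. Its adjusted p was then 0.0532 to 0.109, the highest being without E12.5 PGC replicate 2, at a log2 fold change of 0.22.

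Other repair pathways and genes of S phase were listed for comparison. In non-homologous end joining 4 of 9 genes were lower (Aplf at -0.86). In nucleotide excision repair 3 of 12 were higher and 3 lower (Ddb1 at 0.73 and Ercc6 at -0.69), and in base excision repair 5 of 15 were higher and 2 lower (Parp2 at 0.64 and Fen1 at -0.47). Of 18 S phase genes, 4 were higher and 5 lower (Rrm2 at 0.93 and Slbp at -0.56), and their median log2 fold change was -0.09. The part of cell cycle phase in the changes of the 32 genes was not tested.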

How the data were processed

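The authors sequenced stranded poly(A) libraries as single-end reads, aligned them with STAR to GRCm38 with ERCC sequences and deposited raw counts of unique reads, made with QuasR on the exons of 1 randomly picked isoform a gene. They removed genes with overlapping promoters at random. Whether counting used strand is not given in the sources used here. For 7 of the 32 genes, over 10% of the annotated exon bases overlap an antisense gene, among them Mcm9, Fancc, Fancf and Fanca, and for 8 genes the counted model is under 80% of the longest coding transcript (GENCODE M21). Such models sample only part of a gene and can miss its other isoforms. Per the file headers, the deposited table also holds the exonic length of each model in bases, which was used for RPKM. Entrez identifiers were matched to RefSeq (GRCm38.p6) symbols for 21907 of 21950 rows.

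Counts were normalized with TMM and tested with edgeR 4.0.16 (R 4.3.3) by quasi-likelihood, with cell type as the only term, no filter and Benjamini-Hochberg adjustment over 21950 genes, and log2 fold changes set d6PGCLC over PGC, with a prior count of 0.125. Intervals are 95%. The study's likelihood ratio test, DESeq2 1.42.0, other scalings, filters and prior counts, a length offset, a replicate block and each library left out were alternatives. The members, lists and motifs were chosen with earlier results of these data known. Named from the further lists were the largest changes past the threshold whose groups did not overlap and whose mean count reached 100, 6 in each direction for the pathway list and 1 for each other list. The results of some genes of the further lists are not reported here. The steps were tested on simulated data with known changes. The limit of detection of 3 counts covers counting error only.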

Additional observations from a re-analysis of the deposited data

Results flagged for a closer look

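In 64 sets of 4 libraries (32 genes in 2 groups), a library stood far from the other 3 of its group in 2 sets, where chance gives about 1 in 20, or 3.2 sets. Fancd2 was at 318 CPM in d6PGCLC replicate 1, against 222 to 238 CPM in the other d6PGCLC libraries. Xrcc3 was at 36.8 CPM in E12.5 PGC replicate 2, against 32.4 to 32.9 CPM in the other PGC libraries, and remained below all d6PGCLC libraries there.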

How the results depend on the processing

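The count of 7 higher genes was 7 under every alternative run. The count of 11 lower genes was 6 at an adjusted p of at most 0.01 and ran from 7 to 12 with a library left out, 7 being the value without d6PGCLC replicate 3. All 32 genes kept their direction and their call with the likelihood ratio test, DESeq2, the other scalings, both filters and the larger prior count. The replicate block left 7 higher and 11 lower genes and changed the call of none of the 32. Replicate numbers are shared by the labels of both groups. Deviations from the group means correlated at 0.27 between the libraries numbered 1. With the other PGC libraries, d6PGCLC replicate 1 reached at most 0.035. The same-numbered correlations of replicates 2, 3 and 4 were 0.10, -0.02 and 0.04, and 2 of 4 libraries were closest to their own number. Of the 32 genes, 7 were highest in replicate 1 of both groups, and the cause was not tested. The pathway list of 6 higher and 21 lower genes ran from 5 to 8 and from 17 to 23 with a library left out, and gave 9 and 24 with the block and 9 and 25 with the length offset. The median of the 32 genes lay between -0.10 and -0.04. With a library left out, the log2 fold change of Fancg ran from -0.17 to 0.050. The log2 fold change of Fancd2 ran from -0.038 to 0.15. The log2 fold change of Rad51b ran from -0.062 to 0.017. All 3 changed sign there and none was called. Rad54l was called with the length offset (-0.40, adjusted p = 0.04999). Rnf168 lost its call with library size scaling (0.25, adjusted p = 0.0523) and upper quartile scaling (0.24, adjusted p = 0.0660). With 150 bases before the start, E2F letters were found for 4.17% and CCAAT for 41.7% of the 24 genes with a window. The cause of these changes was not tested. The standard error was largest for Atr (0.20), with Fancf (0.19) and Brca2 (0.18) next.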
